A study of Homo sapiens with 16 samples.

Results

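CCN3, CCN1, IGFBP4 and IGFBP7 encode secreted proteins that share an insulin-like growth factor binding protein (IGFBP) domain, and these 4 genes are described here out of 2676 genes named in the deposited tables of 2 breast cancer lines. They were chosen by their presence in terms listed in a table, which rests on the authors' enrichment p-values, so that presence is a description and is not tested. HCC1954 cells are ERBB2-positive, and MDA231 cells are triple-negative. A brain-metastatic derivative of each was injected into mice, and the brains were taken after 30 days of growth. All animals received 250 mg/kg 5-fluorocytosine 12 hours before harvest, and anti-BrdU antibody, at 2.5 µg per brain, recovered the labelled RNA (Flura-seq, in which cells that convert 5-fluorocytosine label their newly made RNA). The 16 libraries form 4 groups of 4: HCC1954 input, HCC1954 IP (immunoprecipitated RNA), MDA231 input and MDA231 IP. No source used here gives the strain or age of the mice or the number of clones behind each derivative.

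IGFBPs such as IGFBP4 carry insulin-like growth factors in blood and tissue. They can hold these factors away from their receptor or release them when proteases cut the binding protein. CCN proteins are matricellular proteins: they lie in the extracellular matrix, bind integrins and heparan sulfate, and modulate adhesion, growth and survival without being structural. In brain, IGFBP7 is known from vessels, including those of tumours, and CCN1 is a common target of the YAP and TEAD transcription regulators.

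The values analysed were 1 table of Gene Ontology (GO) biological process terms per line, which give enrichment of a gene list and the genes found in each term. No value per library enters, so depth, replicate spread and the direction of any gene between IP and input are unknown here. The HCC1954 list held 66 genes with a process and its table listed 37 terms. For MDA231 the numbers were 3626 genes and 314 terms. Genes of a list are printed only where a listed term holds them. This leaves room for 36 unprinted HCC1954 genes and 980 unprinted MDA231 genes with a process, and an unnamed member may be among them. All 30 HCC1954 and 2646 MDA231 identifiers were human. Of 6 epithelial markers, CDH1, KRT8, KRT18 and ERBB2 were named in the MDA231 table and 0 in the HCC1954 table, against 15.8% and 0.179% of all background genes. With so few genes named for HCC1954, the absence of its defining marker ERBB2 there says nothing about that line. For MDA231, described above as triple-negative, ERBB2 was named in 6 terms. Of 4 mesenchymal markers, 0 were named in either table. At 15.8% of background genes named, 0 of 4 says little about MDA231. As the direction of listed genes between IP and input is unknown, whether ERBB2 and the other epithelial names go against the description of MDA231 cannot be told.

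Of all 2676 named genes, 0 were in both tables, so the placing of each member in a single table is shared by every named gene. CCN3 (ENSG00000136999; GRCh38 chromosome 8, 119416306 to 119424353, plus strand, 5 exons) was named in 6 HCC1954 terms and 0 MDA231 terms. IGFBP4 (ENSG00000141753; chromosome 17, 40443461 to 40457731, plus strand, 4 exons) was named in 3 HCC1954 terms and 0 MDA231 terms. IGFBP7 (ENSG00000163453; chromosome 4, 57030773 to 57110385, minus strand, 5 exons) was named in 2 HCC1954 terms and 0 MDA231 terms. CCN1 (ENSG00000142871; chromosome 1, 85580761 to 85583962, plus strand, 5 exons) was named in 0 HCC1954 terms and 1 MDA231 term. The tables had 0 GO terms in common, so no term can be set side by side for the members of both lines.

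CCN3 held the sixth place among the 30 HCC1954 genes by number of terms, behind TGFB1 (21 terms), GAS6 (13), AXL (10), HMGA2 (8) and BMP7 (7). IGFBP4 shared its count of 3 terms with CYBA and ENPP1. IGFBP7 shared its count of 2 with FGF14, GJA3 and SRGN. The median gene of that table was in 2 terms, so IGFBP7 sat at the median and CCN3 and IGFBP4 above it. Together the 3 genes were in 8 of the 37 terms, or 21.6% (95% exact binomial interval 9.83 to 38.2). Terms share genes and are not independent draws, so that interval covers the count alone.

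**Figure D1:**
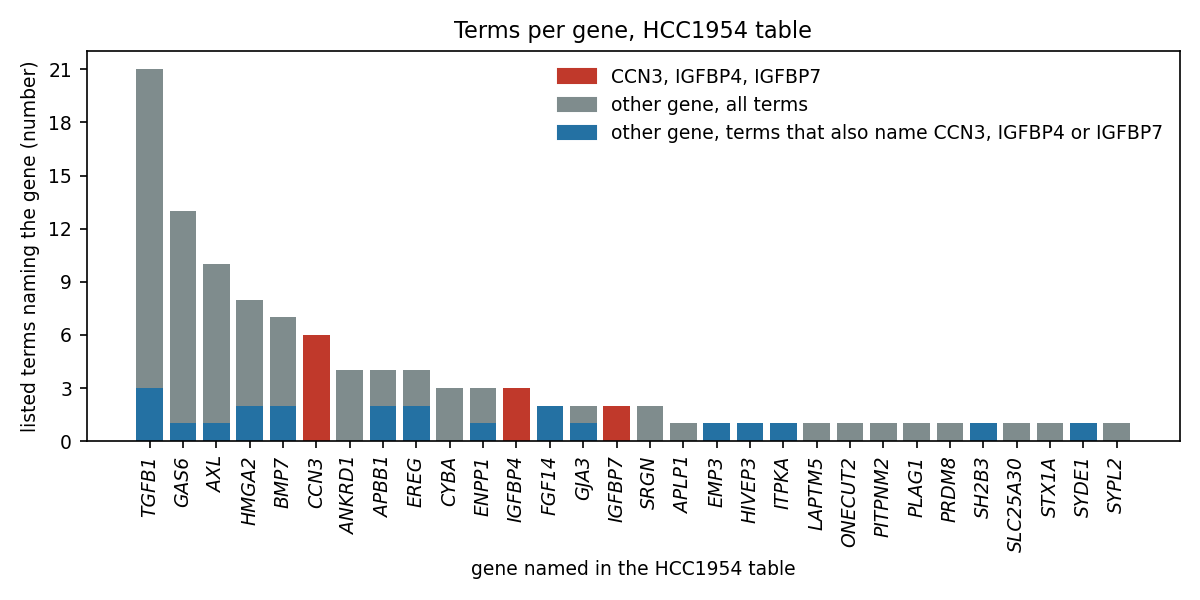
Number of listed terms that name each of the 30 genes of the HCC1954 table (vertical axis), with CCN3, IGFBP4 and IGFBP7 in red and, in blue, the terms other genes share with them. CCN3 stands sixth with 6 terms, and TGFB1 has 21 terms of which 3 also name a red gene.

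Growth and proliferation made up 4 of the 8 terms. Of 5 HCC1954 terms with growth or proliferation in their name, 4 named a member (95% interval 28.4 to 99.5%), against 21.6% of all 37 terms. The exception was positive regulation of fibroblast proliferation. The members were chosen from terms that name them, and 2 of the 4 terms hold members alone. This share thus restates that choice and was not tested. Regulation of cell growth was made up of CCN3, IGFBP4 and IGFBP7 alone, 3 of 80 background genes, and its fold was 9.54 in the authors' deposited table (Benjamini p = 0.823, unadjusted p = 0.0384; 95% exact binomial interval of the fold, computed here, 1.99 to 26.7). Fold here is the share of listed genes in a term over the share of background genes in it. The intervals and the authors' p-values rest on different calculations, so an interval can lie above 1 where the unadjusted p is over 0.05. The largest unadjusted p in the table was 0.0995, so terms with a low fold for their size are not listed, and an interval above 1 adds nothing to the listing itself. Type B pancreatic cell proliferation, growth of the insulin-producing beta cells, held CCN3 and IGFBP4 alone. These are 2 of its 9 background genes, and its fold was 56.5 in the authors' deposited table (Benjamini p = 0.828, unadjusted p = 0.0343; interval 6.89 to 196). No gene outside the 4 members entered either of these terms.

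CCN3 and IGFBP7 were named in different terms for a brake on growth, though both terms named TGFB1 and both genes were in regulation of cell growth. Negative regulation of cell growth named CCN3 with TGFB1, the cytokine transforming growth factor beta 1, ENPP1, an ectoenzyme that also restrains insulin receptor signalling, and APBB1, an adaptor of the amyloid precursor protein. Its fold was 8.41, with 4 of 121 background genes, in the authors' deposited table (Benjamini p = 0.806, unadjusted p = 0.0115; interval 2.33 to 20.5). Negative regulation of cell proliferation named IGFBP7 with TGFB1, BMP7, a bone morphogenetic protein, the growth factor EREG, which binds ERBB receptors, and EMP3, a membrane protein. There the fold was 3.21, with 5 of 396 background genes, in the authors' deposited table (Benjamini p = 0.871, unadjusted p = 0.0672; interval 1.06 to 7.12). IGFBP4 was in neither of the pair.

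CCN3 was also named in 3 terms outside growth and proliferation. Chondrocyte differentiation named it with TGFB1 and HMGA2, a chromatin protein, at 19.6-fold in the authors' deposited table (3 of 39 background genes; Benjamini p = 0.830, unadjusted p = 0.00997; interval 4.08 to 54.7). This was the smallest p among the terms that name a member. Negative regulation of NF-kappaB import into nucleus paired CCN3 with BMP7 at 46.3-fold in the authors' deposited table (2 of 11 background genes; Benjamini p = 0.830, unadjusted p = 0.0418; interval 5.63 to 161). Cell-cell signaling set it beside FGF14, an intracellular fibroblast growth factor, GJA3, a gap junction connexin, and EREG, at 4.01-fold in the authors' deposited table (4 of 254 background genes; Benjamini p = 0.882, unadjusted p = 0.0755; interval 1.11 to 9.78).

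IGFBP4 was also 1 of the 10 genes listed in signal transduction, the broadest term of that table. The others were AXL, a receptor tyrosine kinase, its ligand GAS6, HMGA2, APBB1, FGF14, the cytokine-signal adaptor SH2B3, the zinc finger protein HIVEP3, SYDE1 and the inositol phosphate kinase ITPKA. The fold was 2.19, with 10 of 1161 background genes, in the authors' deposited table (Benjamini p = 0.848, unadjusted p = 0.0340; interval 1.09 to 3.78).

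**Figure D2:**
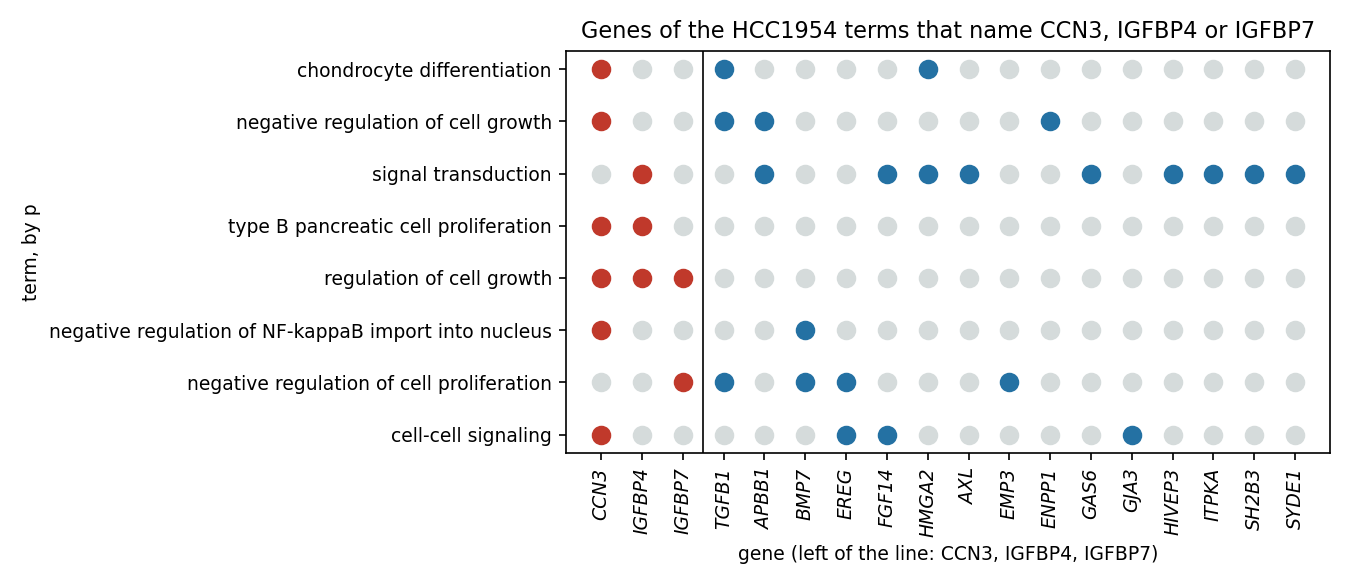
Genes (columns) listed in each of the 8 HCC1954 terms (rows, smallest p at the top) that name CCN3, IGFBP4 or IGFBP7; red and blue dots mark a gene listed in the term, grey dots one not listed. Regulation of cell growth and type B pancreatic cell proliferation have dots left of the line alone.

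Of the 8 terms, 6 had an unadjusted p under 0.05, against 67.6% of all 37 listed terms, and 0 had a Benjamini p under 0.05, against 0% of all. The median unadjusted p was 0.0364 for the 8 and 0.0381 for the 37 terms, while the median fold was 8.98 for the 8 and 21.2 for the 37. The smallest Benjamini p in the HCC1954 table was 0.746, from a term that names no member.

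**Figure D3:**
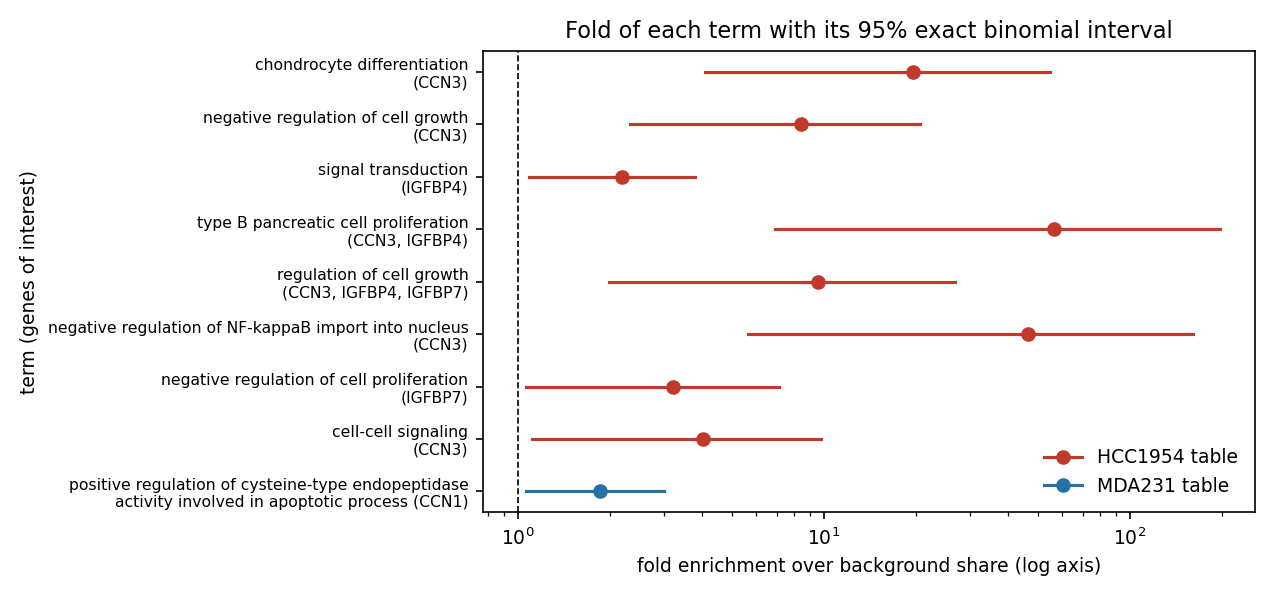
Fold enrichment (points, log axis) of the 9 terms that name a member, with 95% exact binomial intervals (lines) and the dashed line at a fold of 1; red is HCC1954 and blue MDA231. Type B pancreatic cell proliferation has the highest fold, 56.5 (interval 6.89 to 196), and the CCN1 term the lowest, 1.85.

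Terms shared with TGFB1, AXL and GAS6, the genes found in most HCC1954 terms, were counted next. TGFB1 was in 21 terms, of which 3 named a member (14.3%), and among the 16 terms without TGFB1, 5 did (31.2%). AXL or GAS6 was in 14 terms and 1 of these named a member, IGFBP4 in signal transduction. CCN3 shared 0 terms with AXL or GAS6. Of the 8 terms that held none of TGFB1, AXL and GAS6, 4 named a member. The binomial intervals of these shares overlap (3.05 to 36.3% with TGFB1 and 11.0 to 58.7% without), and no test of the difference was made. Of the 4 terms that name a member and none of TGFB1, AXL and GAS6, 2 hold members alone. Those 2 could not name TGFB1, AXL or GAS6, and they also count among the 5 without TGFB1. The splits thus partly restate the choice of members. Term size was not held equal in these splits. A member was named in 10.5% of the 19 terms with 2 genes and in 33.3% of the 18 terms with 3 or more.

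The 3 genes also shared terms with each other. CCN3 and IGFBP4 shared 2 terms, which is 33.3% of the terms of CCN3 and 66.7% of those of IGFBP4. As a measure of likeness, the Jaccard index is the number of shared terms over the number that name either gene, here across 37 terms. Among genes in at least 2 terms, the gene most like CCN3 was IGFBP4 (Jaccard index 0.286), followed by FGF14 and GJA3 at 0.143 each, a value that IGFBP7 tied. For IGFBP4 the order was CCN3 (0.286), then FGF14 and IGFBP7 (0.250 each). For IGFBP7 it was IGFBP4 (0.250), EREG (0.20) and CCN3 (0.143). These indices rest on 2 to 6 terms per member. The members were chosen from these terms and for a shared domain. The only terms shared by members, regulation of cell growth and type B pancreatic cell proliferation, hold members alone. The likeness of the members to each other thus restates that choice and was not tested. The 8 terms brought in 15 genes that are not members, and the other 12 named genes, among them ANKRD1, CYBA and SRGN, shared no term with a member.

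In the MDA231 table, CCN1 was named in a term on the activation of caspases, the proteases of apoptosis. Positive regulation of cysteine-type endopeptidase activity involved in apoptotic process listed 16 of its 40 background genes (40.0%), where 21.6% of all background genes were in the MDA231 list. Its fold was 1.85 in the authors' deposited table (Benjamini p = 0.668, unadjusted p = 0.0159; interval 1.06 to 3.00). An unadjusted p under 0.05 was held by 68.2% of the 314 terms and a Benjamini p under 0.05 by 4.78%, and the CCN1 term belonged to the first and not to the second.

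The 15 partners of CCN1 were proteins of cell death, stress and gene control. They are the other listed genes of the caspase activity term, so their tie to cell death was set by that term. BAD and BCL2L11 are pro-apoptotic members of the BCL2 family, TNFSF10 is the death ligand TRAIL, and DAPK1 and MAP3K5 are kinases of cell death and stress. HTRA2 and COA8 are mitochondrial proteins, BCAP31 is an endoplasmic reticulum protein, and CARD8 and NLRP2 belong to inflammasome biology. PDCD6 is a calcium-binding protein, PPM1F a phosphatase, HSF1 the heat shock transcription factor, MYC a transcription factor and SIRT1 a deacetylase. CCN1 and TNFSF10 were the extracellular ligands of the group.

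CCN1 was among the genes with fewest terms there. It was in 1 term, as was COA8, while the other partners ranged from 2 terms (NLRP2) to 23 (SIRT1), with a median of 6 over the 15 partners. A single term was the count of 1047 of the 2646 MDA231 genes (39.6%). The table listed 4 terms with cysteine-type endopeptidase in their name, and CCN1 was in 1 of them. It was also in 1 of 11 terms whose name refers to apoptosis, and was not in apoptotic process itself, which named 6 of its partners (37.5% of the 16 genes of the CCN1 term and 4.26% of its own). Activation of cysteine-type endopeptidase activity involved in apoptotic process shared 5 genes with the CCN1 term, 31.2% of the one and 17.2% of the other. The genes whose terms were most like those of CCN1, among genes in at least 2 of 314 terms, were NLRP2 (Jaccard index 0.50), PPM1F (0.333) and BCAP31 (0.250, tied with CARD8 and HTRA2).

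**Figure D4:**
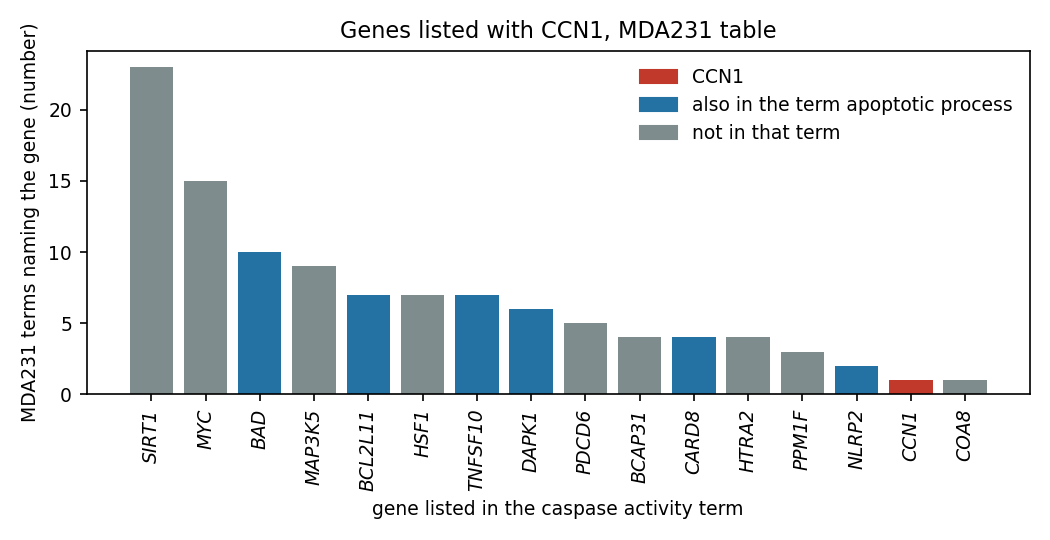
Number of MDA231 terms (vertical axis) that name each of the 16 genes listed in the caspase activity term of CCN1; CCN1 is red, and genes also in apoptotic process are blue. CCN1 and COA8 have 1 term each and SIRT1 has 23.

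With 1 term in all, CCN1 could not be in a growth or adhesion term as well. Terms with growth or proliferation in their name numbered 5 of 314 in the MDA231 table and 5 of 37 in the HCC1954 table. The MDA231 count includes cellular response to epidermal growth factor stimulus, which matched by the name of the factor. These shares are not alike, as the lists held 3626 and 66 genes. The smallest listed terms had 4 genes for MDA231 and 2 for HCC1954. Regulation of growth had 17 of 53 background genes and was enriched 1.49 times in the authors' deposited table (unadjusted p = 0.0907, Benjamini p = 0.962). Cell-cell adhesion, the 1 term with adhesion or integrin in its name, had a fold of 1.47 (Benjamini p = 0.0462) in the authors' deposited table.

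Relatives and pathway genes of the members were looked up in both tables, against 0.179% of all background genes named for HCC1954 and 15.8% for MDA231. Of 6 CCN family genes, HCC1954 named CCN3 and MDA231 named CCN1, and neither named CCN2 (connective tissue growth factor), CCN4, CCN5 or CCN6. Of 13 IGFBPs and relatives, IGFBP4 and IGFBP7 were named for HCC1954 and 0 for MDA231. The ligands IGF1 and IGF2 and the receptor IGF1R were in neither table. Neither was PAPPA, the protease that cuts IGFBP4, nor any of the other 4 genes of the protease and inhibitor list. These lists hold members chosen because they are named, so their counts are descriptions.

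Of the genes that carry the insulin and IGF signal inside the cell, the MDA231 table named 6 of 17 (35.3%). These were IRS2, the adaptor of the insulin and IGF receptors, GRB2, PIK3R1, the regulatory subunit of phosphoinositide 3-kinase, PDPK1, MTOR and GSK3B. MTOR was in 16 terms and GSK3B in 13, against 2 for IRS2. Of 7 ligands and receptors, INSR, the insulin receptor, and IGF2R, which clears IGF2, were named in 2 terms each. Cellular response to insulin stimulus named INSR, IRS2, PIK3R1 and PDPK1 among 26 of 77 background genes, and its fold was 1.56 in the authors' deposited table (unadjusted p = 0.0175, Benjamini p = 0.697). The HCC1954 table named 0 of the 17 carriers and 0 of the 7 ligands and receptors, so IGFBP4 and IGFBP7 were the genes of the IGF lists printed there. With 0.179% of background genes named for HCC1954, the absence of the other genes says nothing about that line.

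For the CCN receptors, ITGAV, the integrin alpha V subunit, was the 1 of 12 integrin and heparan sulfate receptor genes named for MDA231 (8.33%), in 3 terms, and 0 of 12 were named for HCC1954. Hippo pathway genes numbered 5 of 17 for MDA231 (29.4%), namely TEAD3, TEAD4, LATS1, STK3 and NF2, and 0 of 17 for HCC1954. YAP1 itself was in neither table. So few genes were named for HCC1954 that the absence of receptor and Hippo genes there says nothing about that line. Of 8 common YAP and TEAD targets, HCC1954 named ANKRD1 (4 terms) and AXL (10), and MDA231 named CCN1 (1) and AJUBA (8). Neither table shows the direction of these targets between IP and input.

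**Figure D5:**
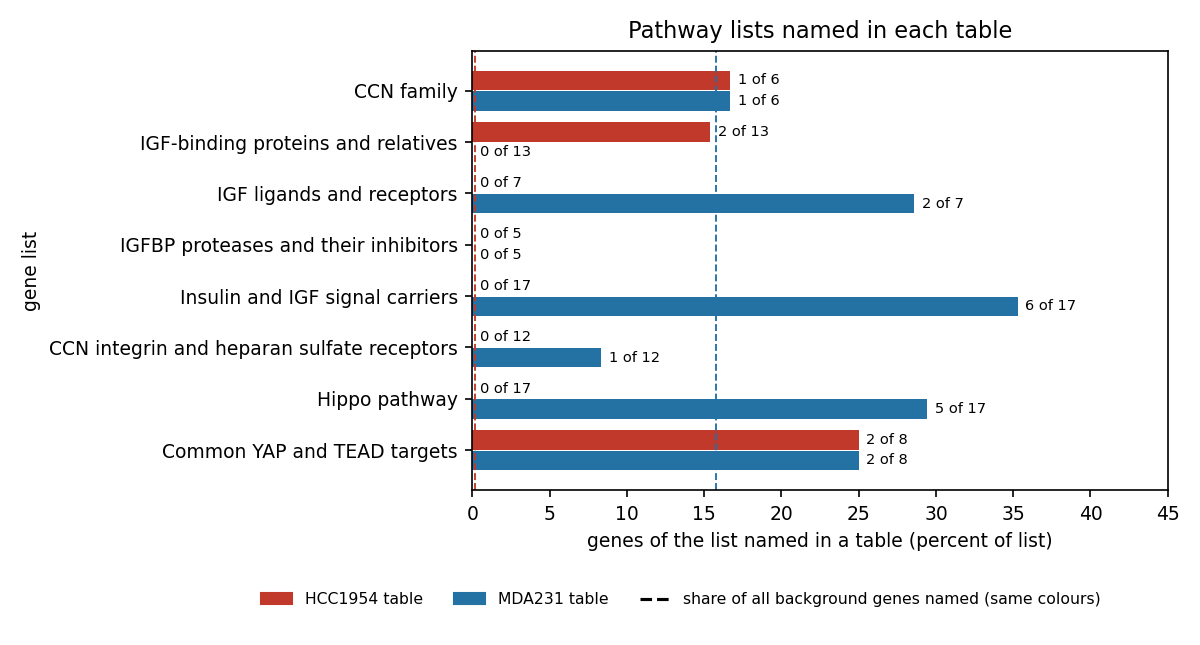
Share of each gene list (horizontal axis, percent) named in the HCC1954 table (red) and the MDA231 table (blue), with numbers of genes beside the bars; dashed lines give the share of all background genes named, 0.179% and 15.8%. Signal carriers, Hippo genes, IGF ligands and receptors, and CCN receptors have blue bars alone, and the IGFBP list a red bar alone. With so few genes named for HCC1954, a missing red bar says nothing about that line.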

How the data were processed

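Per the labels' protocols, mRNA from mouse brains was immunoprecipitated with an anti-BrdU antibody and made into cDNA libraries. STAR and HTSeq were used with GRCh38 and GRCm38, per the submitters' processing notes; no source used here gives their versions, the enrichment tool or how genes entered a list. Per the file headers, the authors' tables hold counts of genes per term, their percent of the submitted genes, an enrichment p-value, adjusted p-values and a fold enrichment, which is the ratio of listed to background share. The false discovery rates and the last column, which has no name, were not used.

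Ensembl identifiers were matched to symbols (30 of 30 for HCC1954 and 2645 of 2646 for MDA231), and coordinates are from GENCODE release 29 on GRCh38. Terms per gene, partners and Jaccard indices were counted with Python 3.11.15. Intervals are 95% exact (Clopper-Pearson) binomial intervals from SciPy 1.17.1 for the share of a list found in a term, divided by the background share, and do not cover the spread between libraries. The counting was tested on a simulated table. No enrichment test was built. Tests of IP against input, planned for the case of counts per library, were not made, and the planned comparison of proteins was not run.

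Members and gene lists were chosen with earlier results of these data known. Named genes were the members, the genes sharing a term with them (at most 15 per member), the 3 most alike by Jaccard index and listed genes of the fixed lists. The 8 pathway lists are described in the report. Of the cell type markers, 0 of 4 mesenchymal, astrocyte, microglia and oligodendrocyte genes each were named in either table, and MAP2 (neuron) and PECAM1 (endothelial) were named for MDA231.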

Additional observations from a re-analysis of the deposited data

How the results depend on the processing

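Of 48 alternatives computed for 19 results, 40 stayed within 1.5 times the count or within the interval of the value, and 8 did not. Some could move little or not at all, so the 40 do not measure robustness. The smallest MDA231 term had 4 genes, so the limit of 3 genes changed nothing there. Taking 1 gene from a count left every fold inside its own wide interval. CCN3 went from 6 to 4 terms, exactly at the 1.5 limit, and was counted as unmoved. IGFBP7 was named in 1 HCC1954 term, in place of 2, both with terms of unadjusted p under 0.05 and with overlapping terms collapsed (Jaccard index of 0.5 or more), and its partners went from 6 to 2 under that p limit. Without the broadest term of each member, the partners of IGFBP7 numbered 2, those of IGFBP4 went from 11 to 2, and those of CCN1 from 15 to 0, since it has 1 term. With the members taken out, the fold was 0 for regulation of cell growth and for type B pancreatic cell proliferation, which hold no other gene. The share of HCC1954 terms naming a member was 24.0% at the p limit, 33.3% with at least 3 listed genes and 37.5% after collapse. No paired analysis was possible because the tables hold no value per library, and leaving out libraries could not be run for the same reason. The alignment of proteins was not run. The number of genes behind each term limits precision: 19 of 37 HCC1954 terms rest on 2 genes.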
